A study of Ovis aries with 16 samples.

Results

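The effect of hypoxia on gene expression in the fetal hypothalamus was estimated over both treatment arms together, with ketamine held constant in the model. The comparison used all 16 of the 16 arrays of the series: 9 from hypoxic fetuses (HC1 to HC5 and HK1 to HK4) and 7 from normoxic fetuses (NC1 to NC3 and NK1 to NK4). The fetuses were sheep (Ovis aries), chronically catheterized in late gestation, and the hypothalamus was taken at 24 h, counted from the start of a challenge lasting 30 min and so after 23.5 h of recovery. NC fetuses had normoxia and no ketamine, NK fetuses had ketamine before normoxia, HC fetuses had hypoxia and no ketamine, and HK fetuses had ketamine before hypoxia. Hypoxia was ventilatory, given to the ewe as nitrogen into the trachea. Most fetuses were twins, and because littermates could not be matched to arrays the p-values take all 16 fetuses as independent. The study assigned normoxia or hypoxia by pregnancy, so any littermates in the series shared that condition. Counting fetuses may therefore overstate the replication of the hypoxia contrast.

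Fetal hypoxia is sensed in many tissues through hypoxia-inducible factor, which raises genes of glucose uptake and glycolysis. A brain insult also engages the vascular endothelium and the resident microglia, which can display adhesion molecules, release chemokines that attract leukocytes, and switch on prostaglandin synthesis. The hypothalamus holds the peptide neurons that govern the pituitary and the stress axis, and ketamine is an anesthetic that blocks NMDA-type glutamate receptors.

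Values are log2 signal relative to the 75th percentile of the array, so a difference of 1 is a doubling and a probe below that percentile has a negative level. The model held hypoxia, ketamine and slide, and a probe was called at an unadjusted p under 0.05 (limma), the threshold used in the study. Of 12249 probes tested, 1743 were called, which is 14.2%. Of these 703 were higher (5.74% of those tested) and 1040 lower (8.49%) in hypoxia. With the Benjamini-Hochberg adjustment limma called 0 probes, and the smallest adjusted p was 0.102, so every gene described here is named at the unadjusted threshold. The rises were larger than the falls: 125 probes called higher changed by over 1 log2 unit and 29 called lower did. The median change over all tested probes was -0.01.

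Peptide genes that mark the hypothalamus were measurable. All 8 of the marker peptide genes on the array were tested, 7 of them were well above background on all 16 arrays, and 0 were called. Of 6 pituitary hormone markers on the array, GH and POU1F1 were not tested because they were well above background on too few arrays. Of the 4 tested, LHB, the luteinizing hormone beta subunit, was called higher, by 0.14 ± 0.06, and its dimmer probe changed by 0.0053. Some markers, of neighboring regions and of the hypothalamus alike, varied widely between fetuses of both conditions. TTR, the transthyretin of the choroid plexus, ranged from -1.38 to 3.47 in normoxia and from -2.64 to 3.47 in hypoxia. CGA, the pituitary glycoprotein hormone alpha subunit, ranged from -6.38 to 0.65 and from -6.03 to 1.12. The hypothalamic marker AGRP ranged from -5.82 to 0.46 and from -4.65 to 1.57. The brighter LHB probe stayed between 2.55 and 3 over all 16 arrays. In bulk tissue, fewer cells of a type and less RNA per cell cannot be told apart.

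**Figure D1:**
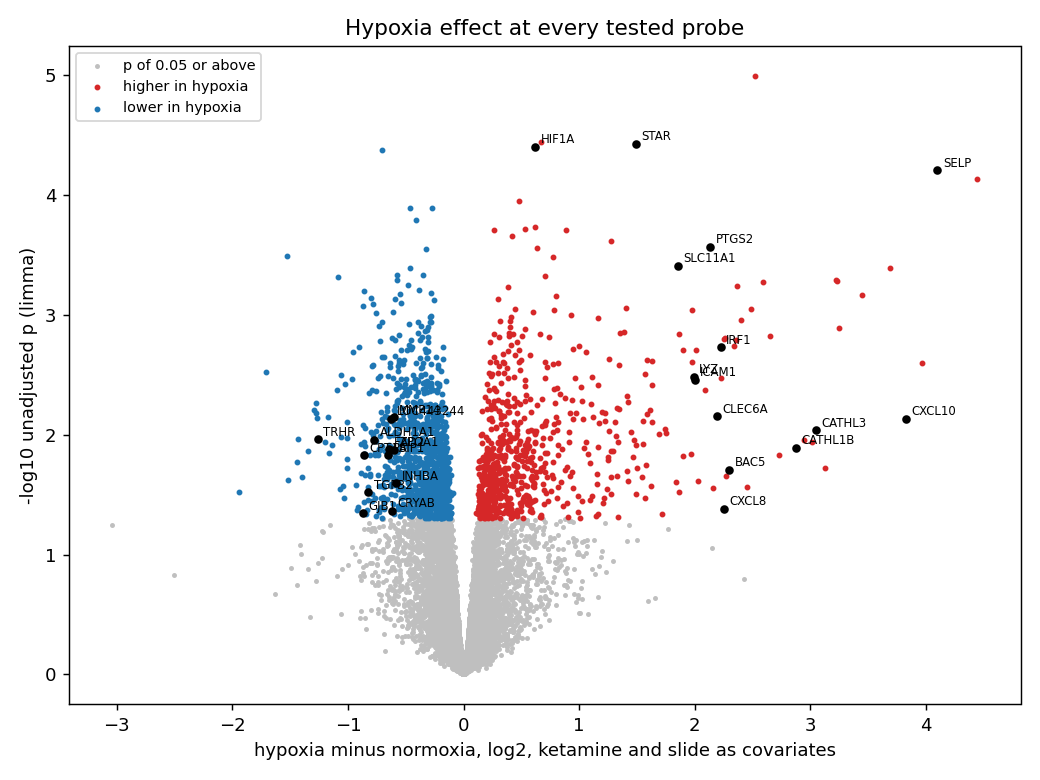
Each point is 1 of 12249 tested probes, with the hypoxia minus normoxia change (log2, x axis) against the unadjusted p of limma (-log10, y axis). Red points were called higher (703) and blue points lower (1040); black points are the named genes, with HIF1A and STAR at their probe of smallest p. The largest changes lie on the right, led by SELP and CXCL10.

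Among the 857 named genes tested, each represented by its brightest probe, 77 rose (8.98%) and 52 fell (6.07%), which is 15.1% called in either direction. Counts given below for a gene list are to be read beside this share. The 12 largest rises were SELP, CXCL10, CATHL3, CATHL1B, BAC5, CXCL8, IRF1, CLEC6A, PTGS2, ICAM1, LYZ and SLC11A1. SELP, the endothelial adhesion receptor P-selectin, ran from -6.88 to -4.98 with a median of -5.61 on the 7 normoxia arrays and from -5.56 to 1.38 with a median of -1.74 on the 9 hypoxia arrays. Its rise was 4.10 ± 0.72 log2 (SE, 17.1-fold; Benjamini-Hochberg adjusted p = 0.127, limma), and 8 of 9 hypoxia arrays lay above every normoxia array. The exception was HK3, at -5.56. This probe was well above background on 3 of 7 normoxia and 9 of 9 hypoxia arrays, so its normoxia level, and with it the fold, rests largely on signal near background. The other SELP probe, which shares no more than 5 bases in a row with the first, was well above background on 0 of 7 normoxia and 8 of 9 hypoxia arrays and was at least 8.94-fold higher in hypoxia.

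ICAM1, a leukocyte adhesion molecule of endothelium, rose by 2.00 ± 0.57, with 7 of 9 hypoxia arrays above all normoxia arrays. It was well above background on 4 of 7 normoxia and 9 of 9 hypoxia arrays, so its size rests partly on signal near background. The call was lost within slide 2 and with another background correction (normexp). The remaining adhesion and vessel genes were quieter. Of 15 tested genes on that list, SELP, ICAM1 and ANGPT2 (a destabilizing ligand of the vessel receptor TEK) rose and 0 fell. The share called was 20%, against 15.1% of all named genes, and the median change was 0.02. ANGPT2 changed by 1.25 within slide 1 and by -0.12 within slide 2 (difference between slides, unadjusted p = 0.000378, limma over 16 arrays). PECAM1, a general endothelial marker, changed by 0.17 ± 0.16 and KDR, the vascular growth factor receptor, by -0.20 ± 0.12. SELE was well above background on only 1 of 7 normoxia and 2 of 9 hypoxia arrays.

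CXCL10, a chemokine induced by interferon, had normoxia levels from -4.15 to -1.37 with a median of -2.23 and hypoxia levels from -3.97 to 5.56 with a median of 1.99. It rose by 3.83 ± 1.22 (14.2-fold), with the probe saturated on 1 array. The hypoxia arrays split widely: 6 of 9 lay above all normoxia arrays, while HC3, HK1 and HK3 lay within their range. CXCL8, the main neutrophil-attracting chemokine, rose by 2.25 ± 1.00, but the call did not survive the removal of NC1, NC2, NC3, NK3, HC1, HC3 or HK2. Only 5 of 7 normoxia and 6 of 9 hypoxia arrays were well above background for it. Of 5 tested genes on the chemokine list these 2 were called, and XCL1, CXCL1 and CCL25 changed by 0.29, -0.01 and -0.13. CCL7, a monocyte-attracting chemokine outside the list, changed by 1.13 ± 0.73 on its brighter probe and was not called, while its dimmer probe was called higher, by 1.72 ± 0.78, with 3 of 7 normoxia and 7 of 9 hypoxia arrays well above background.

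The interferon-regulated transcription factor IRF1 was tight in normoxia, from -3.98 to -3.35, and ran from -3.68 to 0.97 in hypoxia. It rose by 2.22 ± 0.58 (4.67-fold), with 7 of 9 hypoxia arrays above every normoxia array. Of 10 tested interferon genes 2 were called (20%, against 15.1% of all named genes), both higher, and the median change was 0.36. MX2 and ISG15, direct interferon products, changed by 1.02 ± 0.74 and 0.63 ± 0.65 and were not called.

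**Figure D2:**
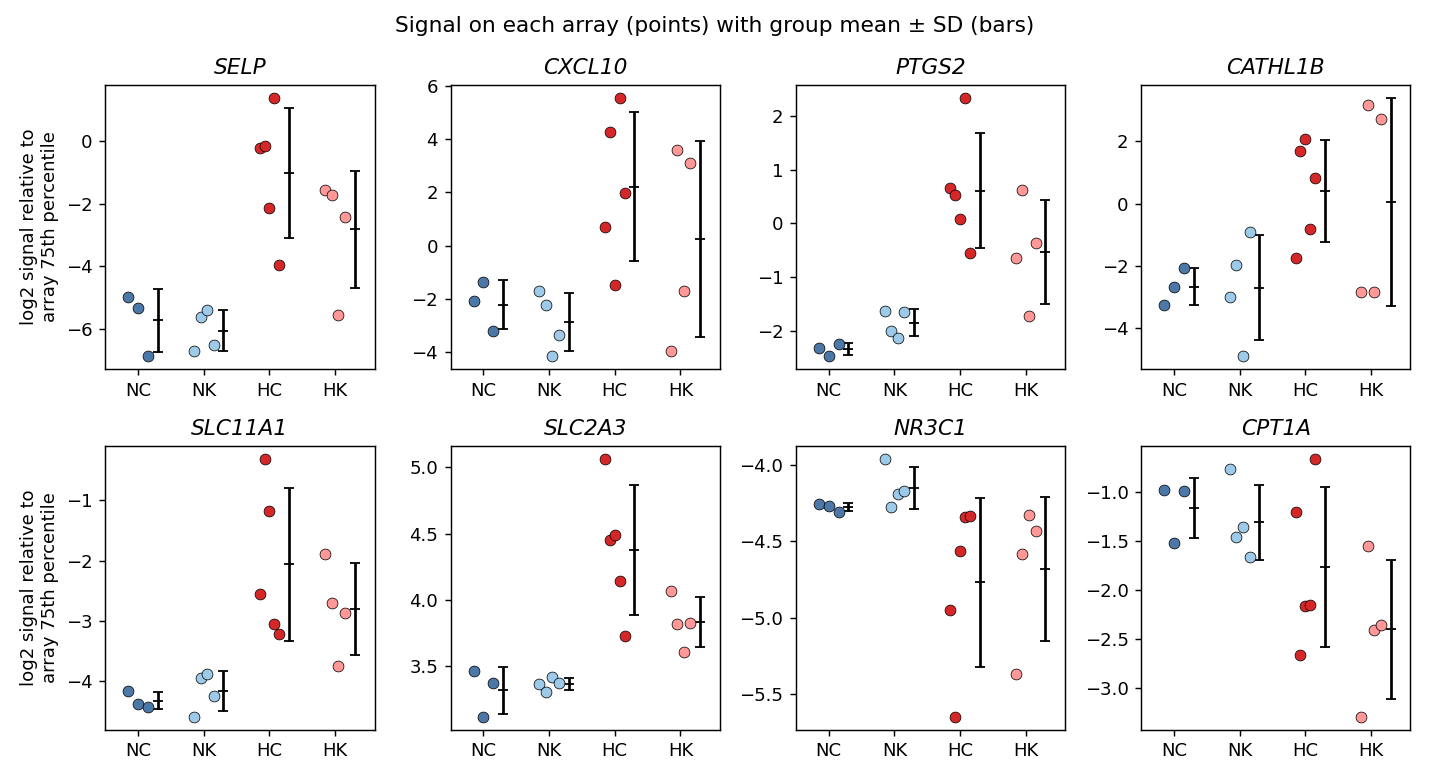
Log2 signal relative to the array 75th percentile (y axis) on each array (points) for 8 genes, by group (x axis), with the group mean ± SD as bars; n = 3 NC, 4 NK, 5 HC and 4 HK arrays. SLC2A3, SLC11A1 and NR3C1 show no overlap between normoxia and hypoxia arrays, while CXCL10 and CATHL1B spread over several log2 units within hypoxia.

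Of 8 tested antigen presentation genes 3 rose, 5 were not called and the median was 0.59. The 3 calls became 6 without HC1, and limma called 0 within slide 1 and 0 in the no-ketamine arm (HC and NC) at the unadjusted threshold. PSMB8, the inducible subunit of the immunoproteasome, rose by 1.22 ± 0.39 and B2M, the light chain of class I molecules, by 0.66 ± 0.17. Class I heavy chains are measured by many probes here, most without a gene symbol. Of 15 tested probes described as MHC class I, 11 were called higher and 0 lower, with a median change of 1.27 and a range from 0.58 to 1.62. This family was chosen after its values were seen, its probes may read each other's transcripts, and 5 of the 15 were saturated on at least 1 array. Of 10 tested MHC class II probes, 2 were called higher, beside 14.2% of all tested probes called in either direction. The median was 0.44, and the 2 DQA1 probes, neither of them called, had changes of 0.37 and -0.84.

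All 4 tested cathelicidins rose. Cathelicidins are antimicrobial peptides stored in the granules of neutrophils, and this group, too, was formed after its values were seen. CATHL3 rose by 3.05 ± 1.01, CATHL1B by 2.87 ± 1.00, BAC5 by 2.30 ± 0.87 and SC5 by 1.57 ± 0.67. For CATHL1B the normoxia arrays ran from -4.88 to -0.92 with a median of -2.69 and the hypoxia arrays from -2.84 to 3.15 with a median of 0.81. The highest levels were on HK2, HK4, HC3 and HC2, and HC1, HK1 and HK3 lay inside the normoxia range at -1.73, -2.83 and -2.84. All 4 were called over the 16 arrays, but 2 when NK3 or HK2 was left out and 0 within either slide alone or in the ketamine arm alone, by limma at the unadjusted threshold. The last 30 of the 60 bases of each probe are shown because these genes are close relatives, so that a reader can see how far the probes could read each other. Capitals mark AATAAA, the usual polyadenylation signal, searched on the printed strand alone and held by 3.86% of all probes in the same window.
CATHL3: gacggtgaaaAATAAAttctggtgaagaca
CATHL1B: ggatctgaaaAATAAActcttgtgacatga
BAC5: agtcagcatccaaaaAATAAAatcttgtgg
SC5: tgagaAATAAAttcttgtgagaacaaattc
Over their full length no 2 of these 4 probes share more than 12 bases in a row. Matches broken by a differing base were not counted, and whether the probes read each other's transcripts was not tested. The neutrophil markers S100A8, S100A9, S100A12 and CXCR2 gave no value, as no probe carried those names, so whether neutrophils were present was not tested.

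Of 13 tested microglia and macrophage genes 3 rose and 0 fell (23.1%, against 15.1% of all named genes called), with a median of 0.29. The median was 0.84 in the no-ketamine arm and -0.01 in the ketamine arm. It went as low as 0.0972 with 1 array left out, and 5 genes were called without NK4. LYZ, a lysozyme of macrophages and granulocytes, rose by 1.99 ± 0.56, and CLEC6A, a lectin that recognizes fungi, was well above background on 0 of 7 normoxia and 6 of 9 hypoxia arrays. CLEC6A thus met the filter for testing through hypoxia arrays alone. On the bound set by the dimmest measurable probes CLEC6A was at least 1.82-fold higher. ITGAM, the integrin of microglia and granulocytes, rose by 0.70 ± 0.23 while its second probe changed by 0.33 and was not called. CD14 changed by 0.74 ± 0.42 on the brighter probe and rose by 0.90 on the other, and ITGB2 changed by 0.25 ± 0.24. The summed level of the 3 tested defining markers CD14, ITGAM and ITGB2 ranged from 0.894 to 1.32 in normoxia and from 0.854 to 3.50 in hypoxia (linear signal as a multiple of the array's 75th percentile). Their part in the rises above was not tested. The lymphocyte marker CD5 rose by 0.94 ± 0.28, while CD3D, CD3E and CD3G, parts of the T cell receptor, changed by 0.55 ± 0.38, 0.32 ± 0.31 and 0.34 ± 0.50. SLC11A1, the metal transporter of phagosomes, separated the conditions: it ran from -4.58 to -3.88 in normoxia and from -3.75 to -0.31 in hypoxia and rose by 1.85 ± 0.40. Only 0.18% of tested probes (22) separated the 2 conditions in this way, 15 of them higher (0.122%) and 7 lower (0.0571%) in hypoxia.

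Of 8 tested prostaglandin and arachidonic acid genes 1 rose and 1 fell (25%, against 15.1% of all named genes called), with a median of 0.17. PTGS2, the inducible cyclooxygenase, lay between -2.47 and -1.64 on the normoxia arrays and between -1.72 and 2.34 on the hypoxia arrays, and rose by 2.13 ± 0.44 (4.38-fold). Its rise was 2.94 in the no-ketamine arm and 1.32 in the ketamine arm. The second PTGS2 probe, sharing at most 6 bases in a row, changed by 1.02 and was not called. CYP2J, a cytochrome P450 that acts on arachidonic acid, fell by 0.38 ± 0.18 and by 0.37 on its second probe. The 2 calls of this list became 1 without NC2, NC3, NK1, NK2, NK3, HC2, HC3, HK1 or HK3. PTGS1, the constitutive form, changed by 0.14 ± 0.23 and PTGDS, the prostaglandin D synthase of brain, by -0.0011 ± 0.067. Of 17 tested cytokine genes 3 rose and 1 fell (23.5%, against 15.1% of all named genes called). IL1RN, the antagonist of interleukin 1, rose by 1.11 ± 0.47, IL1B by 0.67 ± 0.31 and the receptor TNFRSF1A by 0.32 ± 0.13, against TGFB2 at -0.82 ± 0.34. TNF changed by 0.86 ± 0.47 and IL6 by 0.40 ± 0.49. The 4 calls became 1 without NC1, NC2 or HC2, 2 without NK1, NK3, HK2 or HK3, and 5 without HC4. NFKBIA, the inhibitor that NF-kappaB itself induces, rose by 0.96 ± 0.27, and the kinase gene IKBKB by 0.31 ± 0.13. These 2 were the only genes of the NF-kappaB list on the array. Their median was 0.90 in the no-ketamine arm and 0.36 in the ketamine arm. At the unadjusted threshold limma called 1 of them in the no-ketamine arm, 0 in the ketamine arm and 0 within slide 2. Of the 9 tested Toll-like receptor genes TLR2 alone rose (11.1%, against 15.1% of all named genes called), by 0.61 ± 0.25. TLR4 changed by 0.47 ± 0.22. The TLR2 change was 1.14 in the no-ketamine arm and 0.12 in the ketamine arm. Without NC1, NC2, NC3 or HC2 limma called 0 of the 9 at the unadjusted threshold. Of 8 complement, pentraxin and acute phase genes 2 were called higher and 1 lower (37.5%, against 15.1% of all named genes called), with a median of 0.02. That median was 0.61 in the no-ketamine arm and -0.15 in the ketamine arm. At the unadjusted threshold limma called 3 of these genes in the no-ketamine arm, 1 in the ketamine arm and 0 within slide 2. PTX3, a pentraxin of innate immunity, rose by 1.42 ± 0.54. SERPINA1 was also called higher but was well above background on 0 of 7 normoxia and 3 of 9 hypoxia arrays. It thus met the filter for testing through hypoxia arrays alone. SAA3, an acute phase protein, changed by 1.66 ± 1.32.

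**Figure D3:**
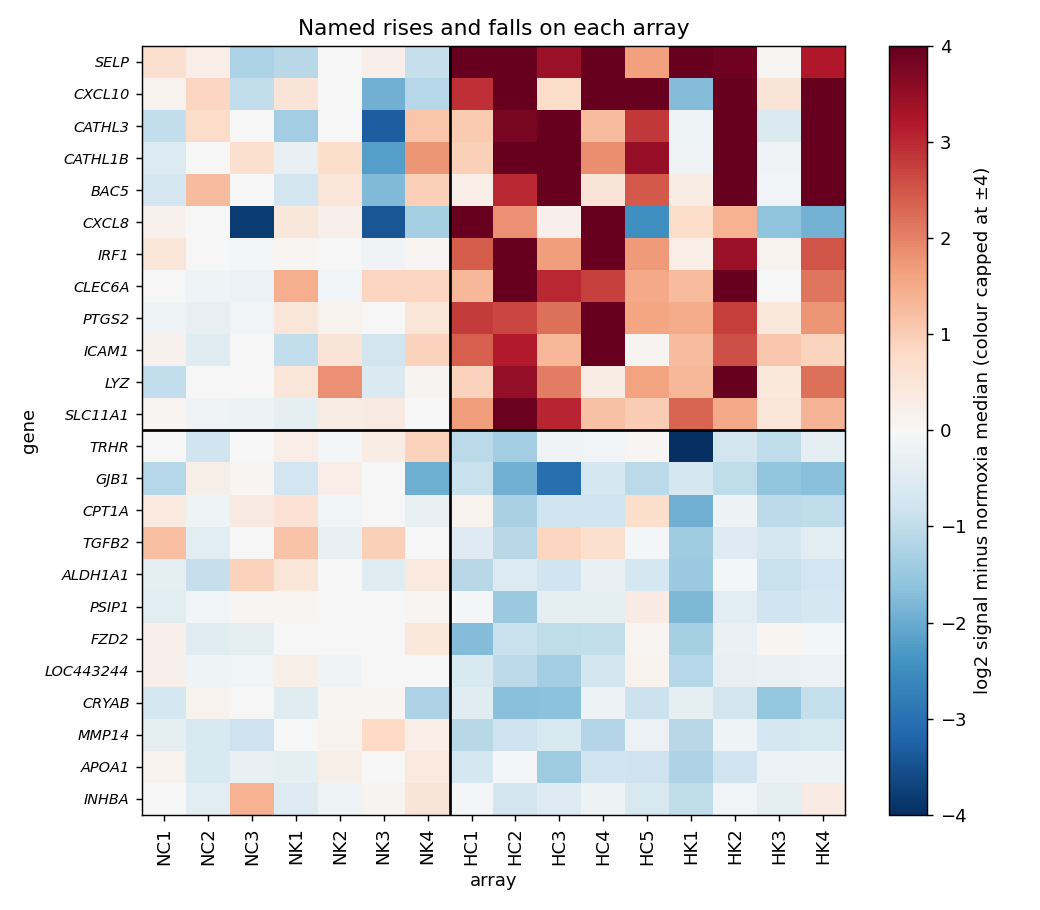
Log2 signal minus the normoxia median (colour, capped at ±4) for the 12 largest named rises (top) and 12 largest named falls (bottom) on each array (columns). HC2 and HK2 exceed every normoxia array for 12 of 12 rises, HK3 for 2 and HK1 for 5.

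The size of the inflammatory rises varied between hypoxic fetuses. The hypoxia SD exceeded the normoxia SD for 12 of 12 named rises, against 69.8% of all tested probes and 80.4% of the probes called higher; it did so for 8 of the 12 named falls. HC2 and HK2 lay above every normoxia array for 12 of the 12, HC3, HC4 and HK4 for 10, HC5 for 9, HC1 for 7, HK1 for 5 and HK3 for 2. The arrays did not rank alike for every gene: HC4 was the highest for SELP, CXCL10, IRF1 and PTGS2 but lay at -0.82 for CATHL1B, where HK2 was the highest at 3.15. HK1 was low for CXCL10 at -3.97 and high for SLC11A1 at -1.90.

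Of 10 tested genes of the hypoxia-inducible factor list 4 rose and 0 fell, with a median of 0.37. HIF1A, the oxygen-regulated subunit itself, rose on both of its probes, by 0.62 ± 0.10 and 0.49 ± 0.13. These are not independent readings, since the 60-base probes overlap by the 20 bases in capitals, at the start of the first and the end of the second.
HIF1A first probe: TTCATGTATACGATACCAACagtaaccaat
HIF1A second probe: acaggccataTTCATGTATACGATACCAAC
The first probe was among the 5 of smallest p. SLC2A3, the glucose transporter of neurons, ran from 3.12 to 3.46 with a median of 3.37 in normoxia and from 3.61 to 5.07 with a median of 4.07 in hypoxia. It rose by 0.78 ± 0.16, its conditions did not overlap, and its second probe, with at most 8 bases in a row in common, rose by 0.70. SLC2A1, the glucose transporter of the blood-brain barrier, rose by 0.46 ± 0.17 and LDHA, which makes lactate from pyruvate, by 0.53 ± 0.16. The SLC2A3 rise was 1.16 in the no-ketamine arm and 0.46 in the ketamine arm, with an unadjusted p = 0.0406 for the difference (limma over 16 arrays). ABCB1, a drug efflux pump of the blood-brain barrier, rose by 0.45 ± 0.12, while the junction genes OCLN and TJP1 changed by -0.05 ± 0.24 and -0.51 ± 0.44. Of the 9 tested barrier genes 2 rose and 0 fell (22.2%, against 15.1% of all named genes called). VEGFA, a classical target, changed by -0.27 ± 0.30 and HK1, the hexokinase gene, by -0.32 ± 0.21. In a wider group of 16 glucose uptake and glycolysis genes formed after the values were seen, 5 rose (also PYGL by 0.41 and PFKL by 0.24) and 0 fell, with a median of 0.01.

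STAR, which carries cholesterol into mitochondria for steroid synthesis, was well above background on 0 of 7 normoxia arrays. Its brighter probe was well above background on 7 of 9 hypoxia arrays and at least 1.39-fold higher there, and the probe of smaller p on 3 of 9. The 2 probes share 59 bases in a row. The other 3 of the 5 probes of smallest p have no gene name in the files. Their first 30 bases are shown so that they can be identified.
A_70_P037666: tttgaacatgttgaagaggctgtatgggca
A_70_P071581: tagggaattctttgcatatggttcagtata
A_70_P066676: atcgaatcaaaacaggaatgggagggtgac
A_70_P037666 rose by 2.52 ± 0.37 and A_70_P071581 by 0.67 ± 0.11. A_70_P066676 fell by 0.70 ± 0.12 and separated the conditions, with normoxia levels from 4.31 to 4.49 and hypoxia levels from 3.30 to 4.14.

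The largest falls were smaller than the rises. TRHR, the receptor for thyrotropin-releasing hormone, ran from -4.18 to -2.47 in normoxia and from -7.54 to -3.35 in hypoxia and fell by 1.26 ± 0.43 (2.40-fold). The lowest value was HK1, without which the fall was 0.78. CPT1A, the gate of mitochondrial fatty acid oxidation, fell by 0.86 ± 0.31 and ALDH1A1, a retinoic acid synthetic enzyme, by 0.77 ± 0.26. GJB1, the connexin of oligodendrocyte gap junctions, fell by 0.87 ± 0.40 and CRYAB, a small heat shock protein of glia, by 0.62 ± 0.28. Both calls depended on NC2, NC3, NK2, NK3, HC2, HC3, HK2, HK3 and HK4, and ended without any 1 of these 9. The other 7 of the 12 largest falls, PSIP1, FZD2, LOC443244 (described in the files as an amino acid system N transporter), MMP14, APOA1, INHBA and TGFB2, changed by -0.58 to -0.82. The TGFB2 call was lost without NC1, NK1, NK3, HC2, HK1 or HK3, and the INHBA call without NC3 or HK1.

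Of 6 tested glucocorticoid receptor and target genes 2 fell and 0 rose, with a median of -0.34. NR3C1, the glucocorticoid receptor, lay between -4.31 and -3.96 on the normoxia arrays and between -5.65 and -4.33 on the hypoxia arrays, with no overlap, and fell by 0.56 ± 0.16. NR3C2, the mineralocorticoid receptor, fell by 0.35 ± 0.15. The other 4, PER1, HSD11B1, FBXO32 and PCK1, were not called. Within slide 1 NR3C1 changed by -0.95 and NR3C2 by -0.63, and within slide 2 by -0.16 and -0.04, with unadjusted p = 0.00626 and 0.047 for the differences (limma over 16 arrays). In the growth factor axis, IGFBP3, which binds insulin-like growth factors, rose by 1.63 ± 0.44, IGF1 fell by 0.51 ± 0.15, and the other 9 tested genes were not called. The share called was 18.2%, against 15.1% of all named genes.

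In a group of 14 genes of lipid synthesis, transport and fatty acid oxidation formed after the values were seen, 7 fell and 0 rose, with a median of -0.19. SQLE and TM7SF2, enzymes of cholesterol synthesis, fell by 0.23 ± 0.07 and 0.21 ± 0.09, and the desaturases SCD and SCD5 by 0.31 ± 0.15 and 0.24 ± 0.09. FABP5, APOA1 and CPT1A also fell, while FASN, the fatty acid synthase, changed by -0.03 ± 0.08. The 7 calls became 4 without NC3 and 1 without NC3 and HK1 together. Of 19 tested matrix genes 3 fell and 0 rose (15.8%, against 15.1% of all named genes called): COL2A1 by 0.57 ± 0.16, DCN (decorin) by 0.49 ± 0.19 and MMP14. The changes of COL2A1 and DCN were -0.15 and -0.01 in the no-ketamine arm and -0.92 in the ketamine arm for both genes. The difference between arms had an unadjusted p = 0.0123 for COL2A1 and 0.0142 for DCN (limma over 16 arrays). The 3 calls became 5 without NC2, HC1 or HC2 and were 1 in the no-ketamine arm and 7 in the ketamine arm. MMP14 was well above background on 4 of 7 normoxia arrays and 1 of 9 hypoxia arrays. Among 5 probes described as collagen chains, a family formed after its values were seen, 3 fell, beside 8.49% of all tested probes called lower. The falls covered only the alpha-1(I) chain, read by more than 1 of these probes, and the alpha-1(III) chain. The alpha-1(IV) and alpha-1(XVI) probes were not called. The median of the family was -0.49. That median was -0.20 in the no-ketamine arm and -0.96 in the ketamine arm. The collagen alpha-1(III) probe changed most, by -1.53 ± 0.32, and by -0.78 and -2.17 in the 2 arms.

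Of 20 tested hypothalamic neuropeptide and receptor genes 3 rose and 0 fell, a share of 15% beside the 15.1% of all named genes called. HCRTR1, an orexin receptor, ran from -4.19 to -3.31 in normoxia and from -3.24 to -2.40 in hypoxia and rose by 0.53 ± 0.13. GAL, the feeding peptide galanin, rose by 0.62 ± 0.26 and ADCYAP1, the pituitary adenylate cyclase-activating peptide, by 0.40 ± 0.18. AGRP changed by 1.01 ± 0.95, POMC by 0.06 ± 0.38, OXT by 0.19 ± 0.51 and SST by 0.18 ± 0.18. Among 14 ribosomal protein, 12 glutamate, GABA and monoamine, 8 heat shock and oxidative stress and 7 astrocyte, ependyma and choroid genes, each taken at its brightest probe, limma called 0 at unadjusted p under 0.05. The neuropeptide calls fell from 3 to 1 without NC2, NC3, NK1, NK3, HC2, HC3, HK1 or HK3. On dimmer probes GRIN1, a subunit of the NMDA receptor, was called lower on 2 (-0.60 and -0.55) and GRIA4, of the AMPA type and outside the list, on 1 (-0.35), while their brightest probes changed by -0.20 ± 0.13 and -0.30 ± 0.14. At the brightest probes, JUNB alone of 6 immediate early genes rose (16.7%, against 15.1% of all named genes called), by 0.81 ± 0.27. The second JUNB probe, sharing 59 bases in a row, changed by 0.59 and was not called. Of 17 apoptosis and cell cycle genes 23.5% were called, against 15.1% of all named genes. BCL2L1, which restrains apoptosis, rose by 0.32 ± 0.11 and CCND3 by 0.26 ± 0.09, while CCND2 fell by 0.54 ± 0.17 and CDK4 by 0.13 ± 0.06. CCND2, CCND3 and CDK4 drive entry into the cell cycle.

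**Figure D4:**
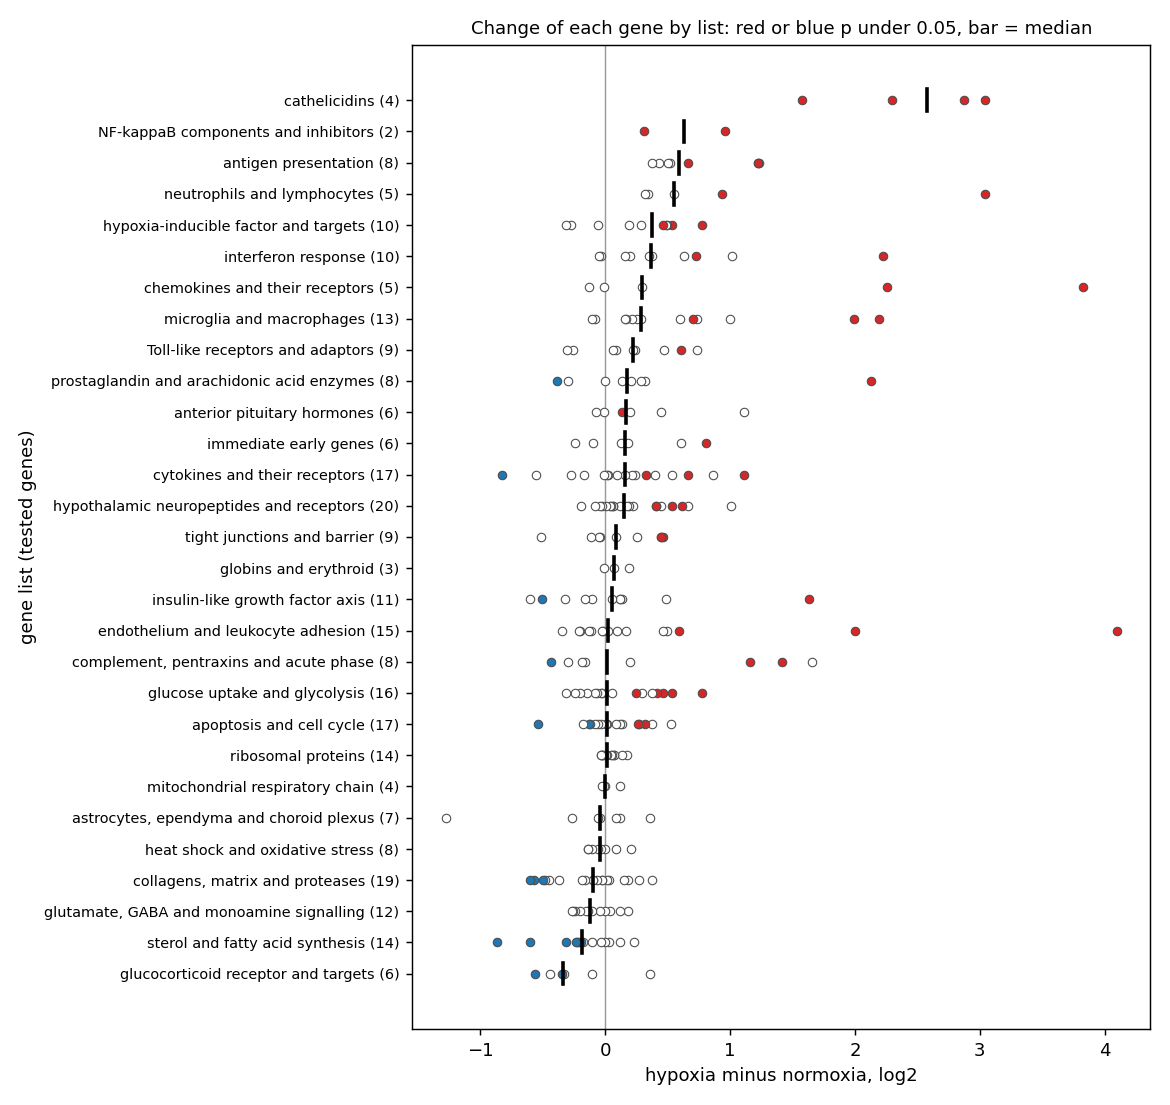
Hypoxia minus normoxia change (log2, x axis) of each tested gene, by gene list (y axis, number tested in brackets). Filled points were called (red higher, blue lower), open points were not, and the bar is the list median; the cathelicidin median is 2.58 and the glucocorticoid list median -0.34. The lists of cathelicidins, of glucose uptake and glycolysis, and of sterol and fatty acid synthesis (which also holds CPT1A and CPT1B, of fatty acid oxidation) were formed after the values were seen.

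The no-ketamine and ketamine arms, which share no arrays, were set side by side because the pooled effect assumes that they respond alike. Of the 1743 called probes, 99.5% changed in the same direction in both arms. The probes called higher had median changes of 0.48 without ketamine and 0.34 with ketamine. Those called lower had median changes of -0.28 and -0.35. The pooled choice of probes partly fixes this agreement of sign, which was 62.1% over all tested probes. The difference of the hypoxia effect between arms was called at 510 probes (4.16%, where chance gives about 5%). Of these 155 were more positive and 355 more negative with ketamine, and 0 passed adjustment (smallest Benjamini-Hochberg adjusted p 0.966, limma). After quantile normalization the split turned, with 57.0% of 465 more positive. Among the 1743 it was called at 84 (4.82%). Within an arm alone, limma called 746 probes without ketamine (6.09%) and 1188 with ketamine (9.7%). The difference between slides was called at 653 probes (5.33%), with 64.2% more positive on slide 2, and at 0 after adjustment (smallest Benjamini-Hochberg adjusted p 0.179, limma). With normexp background correction 26.9% of 773 were more positive.

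**Figure D5:**
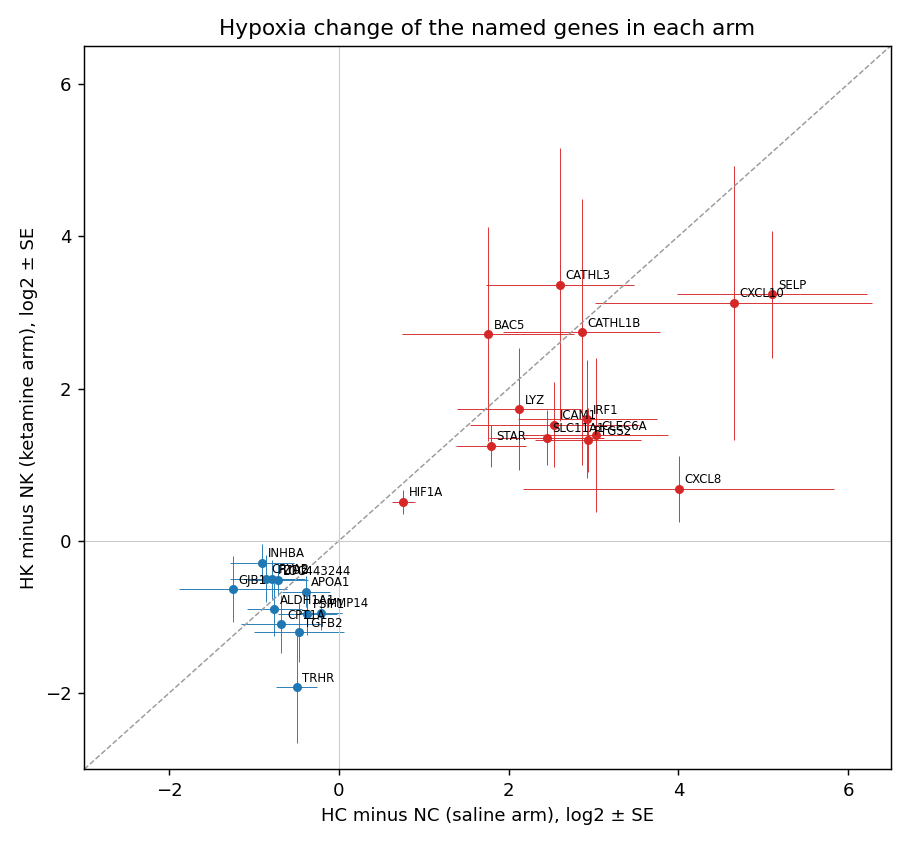
Hypoxia change of the named genes in the no-ketamine arm (HC minus NC, x axis, labeled saline arm) against the ketamine arm (HK minus NK, y axis), in log2 with SE bars. The dashed line is equality. The rises of SELP, CXCL10, PTGS2 and CXCL8 lie below the line and those of CATHL3 and BAC5 above it.

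Some genes had several probes on the array. Of 69 called genes with more than 1 tested probe, 34 had a probe that shared fewer than 20 bases in a row with the one used. This separate probe changed in the same direction for 33 of the 34 and was called the same way for 26. Both probes of a gene were read on the same arrays, and no share over uncalled genes is set beside these counts. PRKAA2, a subunit of the energy sensor AMP kinase, was the exception in direction, at -0.55 and 0.05.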

How the data were processed

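RNA from each fetus was hybridized in 1 color to an Agilent sheep array. Per the file headers, Feature Extraction 10.1.1.1 wrote the deposited scanner files, whose intensity values on a linear scale the software had corrected for background; the authors' methods name an earlier version. The authors also deposited a table of log2 values (array medians 8.53), its method not given in the sources used here, which served as an alternative. Outlier and control spots were left out and saturated spots kept. The log2 processed signal minus the array's 75th percentile was averaged over spots of a probe, and limma 3.58.1 in R 4.3.3 tested each probe that was well above background on 3 or more arrays, with hypoxia, ketamine and slide as terms, two-sided, after a check on simulated data. The arrays that met this filter could all be of 1 condition, as for CLEC6A, SERPINA1 and STAR. The number of arrays limits the precision, and each array was 1 fetus.

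Arrays had 71.7% to 80.6% of probes well above background, a 75th percentile of 1238 to 1596 intensity units, and pairwise correlations of 0.9666 to 0.9865. Slide 1 held 2 arrays of each group and slide 2 held 1 NC, 2 NK, 3 HC and 2 HK. Of 15008 probes 1656 had a gene name and 89% had none. The sheep RefSeq table named 726 of 750 RefSeq accessions, and older array names were updated by hand.

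The text names, from called genes well above background on most arrays of the higher condition (50% or more), the 12 that rose most and the 12 that fell most, the 5 probes of smallest p, and called members of gene lists with up to 3 uncalled ones. The members and lists were chosen with earlier results of these data known. Lists are described by counts and medians. Alternatives covered the model terms, the normalization, the filter on dim probes, each array left out, and each slide and arm alone. Some list members are not reported here.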

Additional observations from a re-analysis of the deposited data

Results flagged for a closer look

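Among the 29 named probes, 87 combinations of probe and group of 4 or 5 arrays were examined for an array far from its group, and 2 were found; chance gives about 1 in 20. FZD2, a Wnt receptor, was at 1.00 on NK4, where the nearest NK array was at 0.595. LOC443244 was at -3.44 on HK1, where the nearest HK array was at -2.62. PTGS2 was flagged for a difference between arms: its hypoxia change was lower by 1.70 log2 with ketamine than without (unadjusted p = 0.0489, limma, 9 hypoxia and 7 normoxia arrays), written as -1.70 for ketamine minus no ketamine. It was the 1 arm difference flagged among the 29 named probes. Over all tested probes an arm difference was called at 4.16%, where chance gives about 5%. The STAR probe of smallest p differed between slides, by -1.14 for slide 2 minus slide 1 (unadjusted p = 0.0165, limma), but it was well above background on 0 of 7 normoxia and 3 of 9 hypoxia arrays, so this is a difference of signals near background. It was likewise the 1 slide difference flagged, with 5.33% called over all tested probes. Neither the PTGS2 nor the STAR difference passed Benjamini-Hochberg adjustment over all tested probes, and their causes were not tested.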

How the results depend on the processing

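Of 1007 comparisons of a named probe with an alternative, 887 kept direction and call, 120 kept direction and lost the call, and 0 reversed. The probes were chosen from these same data for large called changes or small p, and many alternatives drop only 1 array. Both partly fix this agreement in advance. The 1743 calls became 509 with normexp background correction, 124 with 1 probe per named gene (fewer probes tested) and 914 within slide 2. They became 746 in the no-ketamine arm alone and 1020 without NC3 and HK1. Leaving out 1 array gave 1375 (without HC2) to 2053 (without HK2). Normexp ended the calls of A_70_P037666, CLEC6A, CPT1A, CXCL8, GJB1, HIF1A, ICAM1, INHBA, LOC443244, LYZ, MMP14, STAR, TGFB2 and TRHR. After it the lowest values differed between arrays, NC3 and HK1 having the highest. Normexp followed by quantile normalization gave 1738 calls; it and the removal of NC3 with HK1 were chosen after seeing the data. After Benjamini-Hochberg adjustment limma called 1 probe with the replicate block, 4 within slide 1, 2 within slide 2, and 0 to 4 with 1 array left out (4 without HC5, 3 without HK3, 1 without NK2 or HC1). The 510 differences between arms became 177 with normexp, 875 with array weights, 44 with 1 probe per named gene, 284 within slide 1, and 330 (without HK3) to 745 (without HC2) with 1 array left out. The share more positive was 30.4% as reported, 57.0% with quantile normalization, 66.1% with normexp, 64.0% with the deposited values and 57.1% with normexp and quantile normalization. The 653 differences between slides became 51 with 1 probe per named gene, 423 without NC3 and HK1, and 423 (without NC3) to 843 (without HC4) with 1 array left out. The causes were not tested.

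With the replicate number as a block (replicate block) 1742 probes were called. The 21 same-numbered pairs correlated at -0.0578 to 0.346, and at -0.216 to 0.0934 once slide was removed, so the numbers were not taken to pair the fetuses.

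The number of fetuses, the unmodeled litters, the unnamed 89% of probes and dim probes limit what can be read here.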
